A study of Mus musculus with 18 samples.

Results

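The response of MLL-AF9 leukemia cells to MI-2-2, a small molecule that blocks the binding of menin to MLL, was measured by sequencing poly(A) RNA from 3 treated and 3 vehicle libraries. All genes with an RPKM (a read count scaled to gene length and library size) of at least 1 in 3 or more of these 6 libraries were taken, which gave 10637 of the 23418 genes in the table. A further 12781 genes stayed under that level, 5932 of them with a value above 0 in at least 1 library. The series used mouse leukemia cells of strain C57BL/6 that had been transformed by the fusion gene MLL-AF9, MLL-AF6 or MLL-AF1p, with 3 treated and 3 vehicle libraries for each construct and 18 libraries in all. Treated cells received 6 µM MI-2-2 and control cells received DMSO, both at 0.25% DMSO, for 6 days in 12-well plates. Cells were plated in IMDM with serum, and the medium, the compound and the viable cell density were renewed at the middle of the course. The controls carry the MLL-AF9 fusion as well, so the comparison is of drug against vehicle within transformed cells and not of leukemic against healthy cells. The labels do not say how many clones or mice the cells came from, nor whether the replicates were separate cultures, so a p-value here reflects only variation among libraries, pooled over all 18, that could be technical.

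Menin, the product of Men1, binds the amino-terminal part of MLL that every MLL fusion protein retains, and together with LEDGF, the product of Psip1, it holds the fusion on chromatin. There the fusion recruits elongation factors and keeps transcription of the Hoxa cluster and of Meis1, the cofactor of Hox proteins, at a level normally seen in early progenitors. Myeloid cells held in that state carry primary granule proteins but few products of the later granules and few of the surface receptors, lysosomal enzymes and cytokines of neutrophils and macrophages.

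The 6 MLL-AF9 libraries held between 21180926 and 29063822 reads in genes. Treatment separated the libraries along the first principal component, with 82.6% of the variance, and the 2nd component, with 12.1%, placed DMSO replicate 1 (score 26.5) and DMSO replicate 2 (score −24.7) at opposite ends. The vehicle libraries were the more variable group: 516 genes spanned more than 1 log2 unit among them, against 111 genes among the treated libraries. The pan-leukocyte genes Ptprc, Lcp1, Coro1a, Vav1 and Laptm5 summed to between 1028 and 1090 RPKM in vehicle and between 1373 and 1460 RPKM in treated libraries. Defining genes of the myeloid lineage, Sfpi1 (PU.1), Cebpa, Itgam, Lyz2, Csf2rb, Fcer1g and Tyrobp, summed to between 1947 and 3240 RPKM in vehicle and to between 5511 and 6570 RPKM in treated libraries. The cells therefore carry the markers of myeloid leukocytes that the labels imply. Of the 9 erythroid markers, none reached the level for testing, 5 were at 0 in all 6 libraries, and the sum was at most 1.96 RPKM. B cell markers summed to at most 0.894, NK cell markers to at most 0.884, and fibroblast and endothelial markers to at most 0.724 RPKM in any of the 6 libraries. T cell markers summed to 3.80 to 4.93 RPKM in vehicle and 2.01 to 2.23 RPKM in treated libraries. Mast cell and basophil markers summed to 13.8 to 18.1 RPKM in vehicle and 6.03 to 7.45 RPKM in treated libraries, with 3 of 7 at 0 throughout. Osteoclast markers, which macrophages share in part, summed to 2.86 to 4.08 RPKM in vehicle and 9.15 to 14.5 RPKM in treated libraries. In bulk RNA, more cells of a mature type and more RNA per cell cannot be told apart.

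Of the 10637 genes, 3085 rose (29.0%) and 3026 fell (28.4%) with MI-2-2, at a Benjamini-Hochberg adjusted p under 0.05 in limma's moderated test on log2(RPKM + 0.5), and 4526 did not pass. Fold changes on that scale understate the change of genes near 0. Rises and falls counted within a gene list are to be read beside the shares of 29.0% and 28.4%. The counts in the 2 directions were alike, but the sizes were not. At least 2-fold rises numbered 730 (6.86%) and at least 2-fold falls 428 (4.02%), and past 8-fold there were 115 rises and 8 falls. Past 32-fold there were 25 rises and 0 falls. The median over all genes was −0.0003 on the log2 scale, and the quartiles lay at −0.31 and 0.32. In 3109 genes (29.2%) all treated libraries lay above all vehicle libraries, and in 3037 (28.6%) all lay below. A switch across 1 RPKM was seen in 252 genes that were under it in every vehicle library and at or above it in every treated one, and in 145 genes the other way. The largest gains in absolute level were those of S100a8 and S100a9, the subunits of calprotectin, of Chi3l3, a chitinase-like lectin, of Ftl1, the ferritin light chain, of Lyz2, lysozyme, and of Stfa1, a stefin. The largest losses were those of Elane, neutrophil elastase, of the elongation factor Eef1a1 and of the ribosomal proteins Rpl32, Rps18, Rpl28 and Rps12. Stefin, chitinase-like, lysozyme, Ly6c, Bcl2a1 and ribosomal protein genes have near-identical copies among which reads can be split, and the library kit did not mark strand, so their single values and those of genes with an antisense partner, as in the Hoxa cluster, are uncertain.

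**Figure D1:**
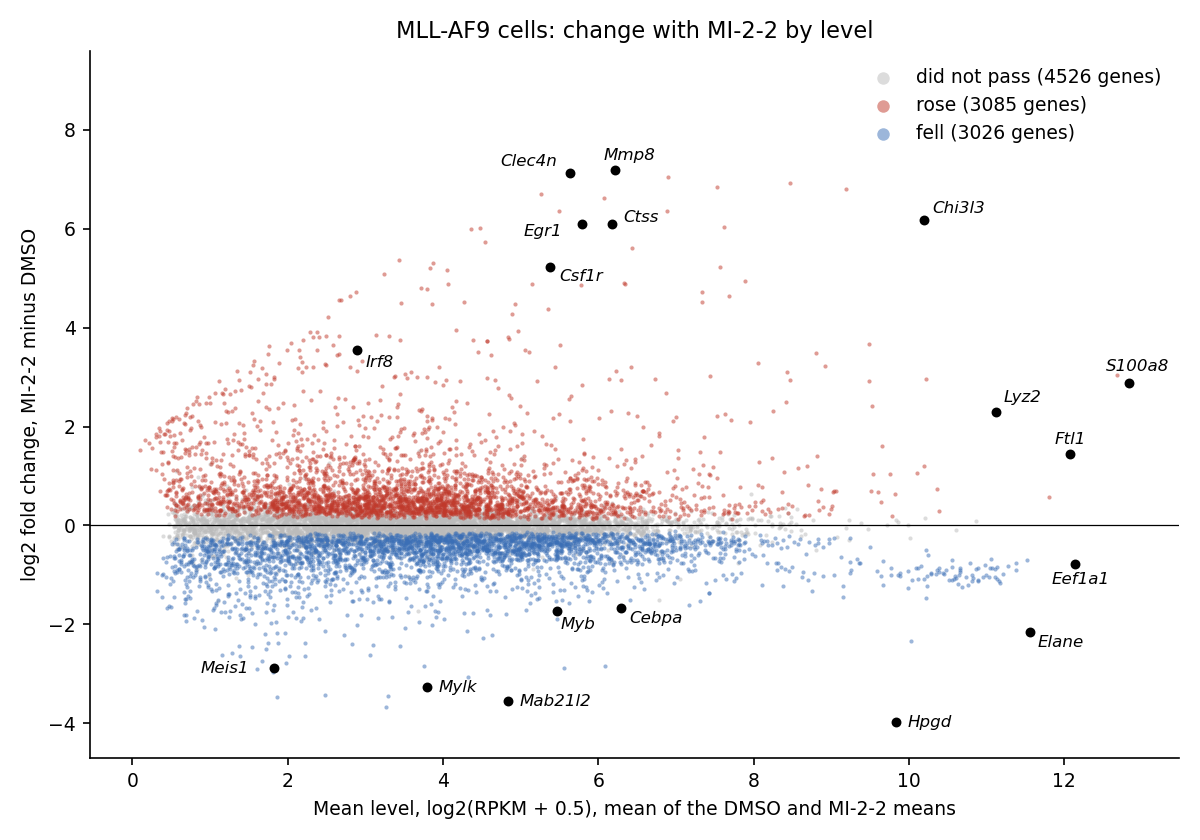
Each point is 1 of the 10637 genes. The horizontal axis is the log2 of its mean RPKM over the 6 MLL-AF9 libraries plus 0.5, and the vertical axis its log2 difference, MI-2-2 minus DMSO. Red points rose and blue points fell (adjusted p under 0.05) and grey points did not pass; the upper tail past 3 log2 units holds 115 genes and the lower tail 8.

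The fusion's own targets fell as a group, with exceptions. Of 20 tested targets of MLL fusion proteins, 14 fell and 3 rose, against 28.4% and 29.0% of all genes, and the median was −0.82 on the log2 scale. Eya1, a phosphatase that works as a transcriptional coactivator, stood at 5.46, 3.56 and 5.73 RPKM in the vehicle libraries and at 1.88, 1.87 and 2.07 RPKM with MI-2-2. The groups were well apart, and Eya1 fell by 1.13 ± 0.12 (SE, n = 3 and 3) on the log2 scale (limma, adjusted p = 1.22e-06). Pbx3, a homeobox cofactor of Hoxa9, fell by 1.02 and Runx2, a Runt factor, by 0.94 log2 units. Within the Hoxa cluster the falls were smaller, from 0.41 for Hoxa6 to 1.04 for Hoxa5, and Hoxa7, at 5.9, 6.29 and 9.67 RPKM in vehicle and 6.14, 5.64 and 5.42 RPKM in treated libraries, did not pass (log2 difference −0.29, limma adjusted p = 0.085). Hoxa6 did not pass without DMSO replicate 3, MI-2-2 replicate 2 or MI-2-2 replicate 3, nor by voom on reads, whereas Hoxa7 fell without DMSO replicate 1 or DMSO replicate 2 and with either rescaling. Meis1 had by far the deepest fall of the list, by 2.89 log2 units. Zeb2, a zinc finger factor of monocyte and dendritic development, and Igf1r, the insulin-like growth factor receptor, rose, by 0.86 and 0.36. Mef2c, a MADS-box factor, rose from 0.102, 0.057 and 0.0781 RPKM to 1.42, 2.15 and 1.49 RPKM, a low level in both groups.

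The shared control and treated MLL-AF9 libraries also enter each comparison with another construct. The MLL-AF9 response was higher than that of MLL-AF6 cells in 10 of the 20 targets and lower in 2, where all genes gave 24.3% higher and 8.44% lower. Against MLL-AF1p cells it was higher in 6 and lower in 4, where all genes gave 21.2% and 13.5%. Without DMSO replicate 2 these counts were 4 and 5, without MI-2-2 replicate 1, or with median centring or quantile normalization, 4 and 4, and the 2 genes lower than in MLL-AF6 cells ran from 0 without MI-2-2 replicate 3 to 4 without DMSO replicate 2. Of 9 tested stem and progenitor genes, 3 of which (Lmo2, Meis1 and Myb) are also in the target list, 6 fell and 2 rose. Myc, the growth regulator, fell from 27.4, 43.3 and 38.03 RPKM to 13.7, 14.3 and 13.9 RPKM, by 1.32 log2 units, and Egfl7, a secreted factor that hosts a microRNA, by 1.55. Cd93, a surface receptor of progenitors and monocytes, rose by 0.67 and Kit, the stem cell factor receptor, by 0.36. The rise of Kit did not pass with median centring, quantile normalization or MLL-AF9 libraries alone, nor without DMSO replicate 1, DMSO replicate 2, MI-2-2 replicate 2 or MI-2-2 replicate 3; with 1 of those 4 libraries left out it ran from 0.26 to 0.34. Another 12 of the 21 listed genes were under the testing level, among them Cd34, Gata2 and Hlf at or near 0 and Mycn, Trib2 and Ikzf2 at 0 in all 6 libraries.

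The genes of the drug's target complex shifted little. Of 10 tested members of the menin and MLL1 complex, 5 fell and 3 rose, beside 28.4% and 29.0% of all genes. The differences ran from −0.61 to 0.43 log2 units. Men1 stood at 11.5, 9.29 and 11.03 RPKM in vehicle and 7.85, 6.77 and 7.57 RPKM in treated libraries and fell by 0.49, and Psip1 fell by 0.31. The acetyltransferase Kat8 had the deepest fall, 0.61, while Mll1 (Kmt2a), whose reads come from the native and possibly the fusion transcript, rose by 0.37. Among 14 genes of the elongation and DOT1L complexes 4 rose (28.6%, about the share of all genes), 1 fell and 9 did not pass. Mllt1 (ENL), the close relative of AF9, fell by 0.81, and Mllt3, the native AF9 gene, stood at 2.41, 2.05 and 2.43 RPKM against 1.92, 1.98 and 2.32 RPKM (log2 difference −0.12). The 4 rises of this list became 1 with MLL-AF9 libraries alone and 2 with median centring, with quantile normalization or without MI-2-2 replicate 1, and its falls became 3 with median centring or without DMSO replicate 2.

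Transcription factors of myeloid fate moved widely. Of 33 tested, 25 rose, 5 fell and 3 did not pass, with a median of 1.46 log2 units. The immediate early genes, which serum, cytokines and adhesion induce in myeloid cells, led the list. Fos, a subunit of AP-1, stood at 0.708, 0.542 and 0.525 RPKM in the vehicle libraries and at 86.7, 91.9 and 87.6 RPKM with MI-2-2. It was nearly silent in every control and high in every treated library, and it rose by 6.36 ± 0.12 (SE) log2 units (limma, adjusted p = 2.23e-15). Egr1, a zinc finger factor of the monocyte path, went from 0.571, 1.69 and 1.2 RPKM to 108, 114 and 104 RPKM, a rise of 6.1 log2 units. The partners of the same families rose as well: Jun by 3.73, Junb by 2.32, Fosb by 3.09, Fosl2 by 1.22, Egr2 by 3.18 and Atf3 by 3.84. Treated libraries lay close together in these genes; the 3 values of Atf3 were 11.2, 11.4 and 11.4 RPKM.

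The interferon regulatory factors of monocyte and dendritic cell fate rose too. Irf8, which steers progenitors to monocytes and away from neutrophils, stood at 0.46, 0.802 and 0.776 RPKM in the vehicle libraries. With MI-2-2 it stood at 13.2, 13.2 and 13.4 RPKM, with every treated library far above every control (log2 rise 3.56 ± 0.15, SE; limma adjusted p = 3.29e-11). In the other constructs Irf8 started high: its mean went from 21.5 to 35.01 RPKM in MLL-AF6 cells and from 18.1 to 28.2 RPKM in MLL-AF1p cells. The MLL-AF9 response was larger by 2.83 and 2.94 log2 units (limma interaction, adjusted p = 3.70e-07 and 3.43e-07), while the treated MLL-AF9 level of 13.2 RPKM stayed under the vehicle level of both other constructs. Irf4 rose by 2.16 and Irf5, a mediator of macrophage cytokine output, by 1.67. Klf2 and Klf4, Krüppel-like factors of monocytes, rose by 1.91 and 1.85, with Klf4 low at 1.19, 2.28 and 1.3 RPKM after treatment. Bhlhe41, a repressor of macrophage self-renewal genes, rose by 3.33, and the nuclear receptors Rxra and Pparg by 1.46 and 1.63.

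The granulocyte factors split. Cebpa, which drives the step from progenitor to granulocyte-monocyte precursor, fell from 129, 105 and 124 RPKM to 39.2, 32.6 and 39.4 RPKM, by 1.67 ± 0.14 (SE) log2 units (limma, adjusted p = 8.46e-08). Gfi1, a repressor needed for neutrophils, fell from 76.2, 80.4 and 76.4 RPKM to 26, 29.4 and 29.9 RPKM, by 1.44. No treated library overlapped a control in either gene. Cebpe, which activates the genes of the later granules, instead rose by 0.77, Cebpd by 0.67 and Cebpb by 0.31, the last of these not passing in 9 of the settings tried, among them median centring and every omission of 1 library but that of MI-2-2 replicate 2. Cebpg, which binds the same sites and pairs with other C/EBP proteins, fell by 1.04 and Tfec, a relative of Mitf, by 1.16. Sfpi1, the gene of the master myeloid factor PU.1, was high throughout, at 258, 239 and 242 RPKM and 309, 288 and 314 RPKM, and rose by 0.3. Cebpa fell to the same extent in MLL-AF6 cells (−1.67) and its difference in MLL-AF1p cells was −0.29. The same held for Gfi1, with −1.69 and −0.13, and the MLL-AF9 response of Gfi1 was lower than that in MLL-AF1p cells by 1.31 log2 units (limma interaction, adjusted p = 3.18e-05).

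**Figure D2:**
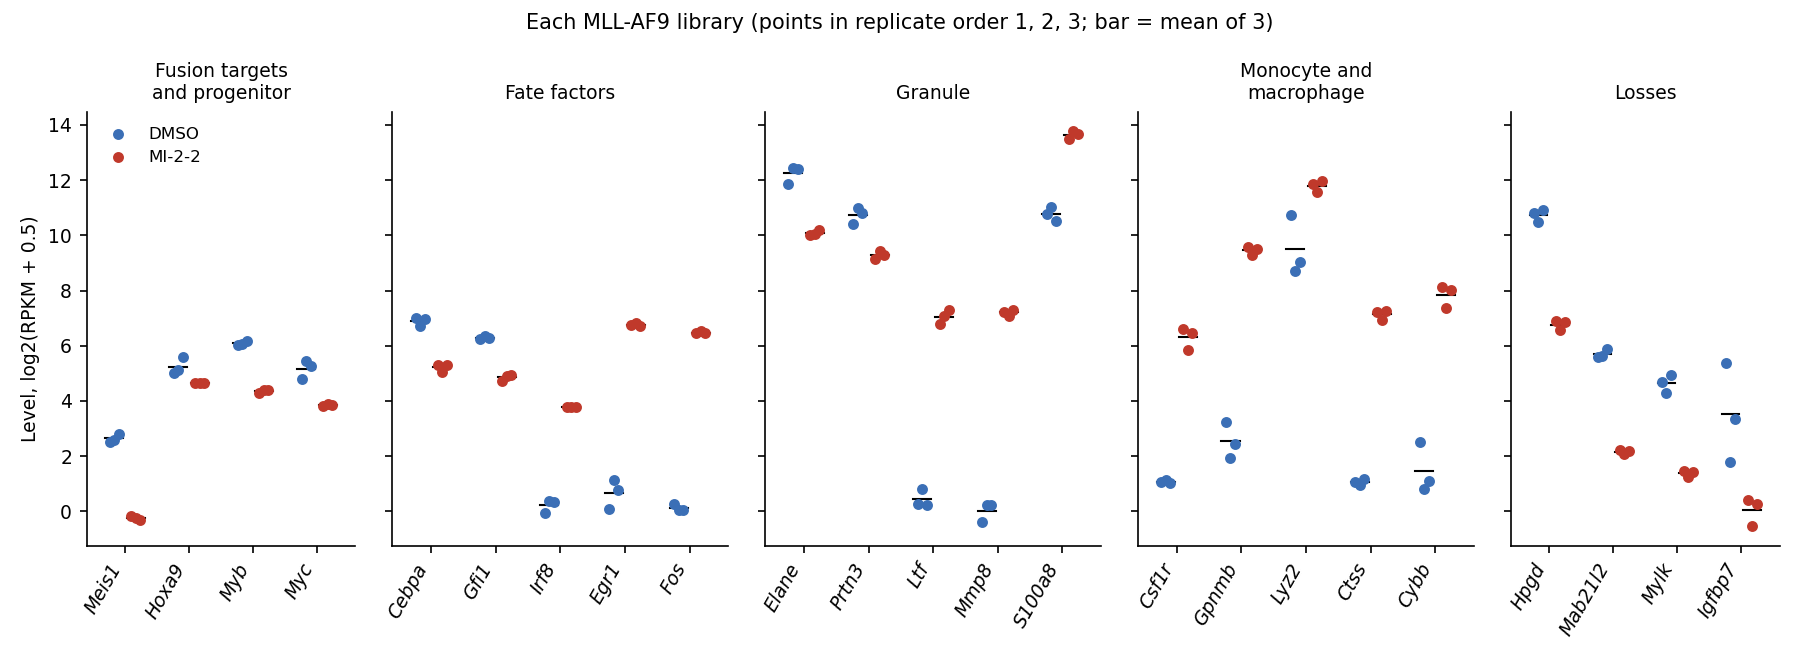
Level of 23 genes in the 6 MLL-AF9 libraries, as log2(RPKM + 0.5), in 5 panels (fusion targets and Myc, fate factors, granule genes, monocyte and macrophage genes, and losses). Points are libraries in the order replicate 1, 2, 3 within DMSO and within MI-2-2, and the bar is the mean of 3; Irf8, Fos and Egr1 rise from near the floor, Cebpa and Gfi1 fall, and Lyz2 and Igfbp7 spread most within DMSO.

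Genes of the later neutrophil granules rose almost without exception. Neutrophils fill primary granules first, at the promyelocyte stage, then specific and gelatinase granules. Of 19 tested late granule and mature neutrophil genes, 18 rose and the acute phase gene Orm1, at 4.89, 4.47 and 5.82 RPKM and 4.17, 3.77 and 3.96 RPKM, did not pass. The median was 4.5 log2 units in MLL-AF9 cells, 2.79 in MLL-AF6 cells and 3.24 in MLL-AF1p cells. The promoters of Ltf and Mmp8 are shown because C/EBP proteins are the textbook activators of these granule genes and both genes rose by 153-fold and 275-fold in mean RPKM. They are RefSeq sequences on build GRCm38.p6, from 250 bases before to 50 bases after the transcription start on the gene's strand; capitals mark a match to the C/EBP motif TTGCNNAA on either strand.
Ltf, chr9:111019042-111019341, plus strand: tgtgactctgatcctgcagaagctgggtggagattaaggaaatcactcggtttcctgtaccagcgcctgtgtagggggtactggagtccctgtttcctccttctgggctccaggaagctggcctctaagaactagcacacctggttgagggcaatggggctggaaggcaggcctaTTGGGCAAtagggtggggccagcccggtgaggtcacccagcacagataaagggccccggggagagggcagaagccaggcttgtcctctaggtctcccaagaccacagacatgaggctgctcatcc
Mmp8, chr9:7558179-7558478, plus strand: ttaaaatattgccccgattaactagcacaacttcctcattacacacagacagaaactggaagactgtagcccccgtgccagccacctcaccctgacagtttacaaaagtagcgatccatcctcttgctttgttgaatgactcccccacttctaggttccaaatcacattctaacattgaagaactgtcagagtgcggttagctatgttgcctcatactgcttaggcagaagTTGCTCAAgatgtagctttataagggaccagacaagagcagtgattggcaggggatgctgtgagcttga
The match starts 75 bases before the Ltf start and 19 bases before the Mmp8 start. In this window 6 of the 15 late granule genes with a sequence held the motif (40.0%: Ltf, Lcn2, Ngp, Mmp8, Retnlg and S100a9), against 662 of 7958 tested genes with a sequence (8.32%) and 55 of the 532 genes that rose at least 2-fold (10.3%). A match describes the sequence and does not show that a factor binds.

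Ltf, the iron-binding protein lactoferrin, rose from 0.718, 1.24 and 0.661 RPKM to 109, 133 and 157 RPKM, by 6.61 log2 units. Mmp8, neutrophil collagenase, had the largest rise of all named genes, from 0.274, 0.665 and 0.67 RPKM to 150.4, 135 and 157 RPKM, 7.18 ± 0.21 (SE) log2 units (limma, adjusted p = 2.78e-13). Both were nearly silent in every control library and high in every treated one. Retnlg, a resistin-like peptide, rose by 5.72, Ngp, a granule protein of the cathelicidin family, by 3.66, and Itgb2l, an integrin of mature neutrophils, by 4.5. Cxcr2, the receptor that calls neutrophils out of marrow, rose by 2.39, and Csf3r, the granulocyte colony-stimulating factor receptor, by 2.57. Mmp9, gelatinase B, was at 0.443, 0.838 and 0.524 RPKM in vehicle and at 31.6, 27.3 and 36.9 RPKM in treated libraries, a rise of 4.89. In MLL-AF6 and MLL-AF1p cells Mmp9 was at 21.7 and 30.8 RPKM before treatment and at 35.3 and 33.1 RPKM after it, so the treated levels of all constructs were alike and the vehicle levels were not. The MLL-AF9 response was higher in 9 of the 19 genes and lower in 0 against MLL-AF6 cells, where all genes gave 24.3% and 8.44%. Against MLL-AF1p cells it was higher in 10 and lower in 1, where all genes gave 21.2% and 13.5%.

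The primary granule genes, which MLL-AF9 cells express at high level, were divided. Of 10 tested, 5 fell, 3 rose and 2 did not pass, beside 28.4% and 29.0% of all genes; the rises numbered 1 without DMSO replicate 3. Cst7, cystatin F, fell from 61.6, 78.1 and 78.7 RPKM to 34.3, 25.4 and 31.7 RPKM, by 1.25 log2 units, and Srgn, the proteoglycan that packs granule proteases, from 1029, 649 and 826 RPKM to 314, 284 and 302 RPKM, by 1.45. Elane fell by 2.16, Prtn3 by 1.47 and Ctsg by 0.77, the 3 neutrophil serine proteases. Ctsc, the peptidase that activates those proteases, rose by 1.33. Mpo, myeloperoxidase, was at a trace level in all 6 libraries.

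Monocyte and macrophage genes rose alongside the neutrophil ones. Of 19 tested markers 13 rose, 1 fell and 5 did not pass. Cd68, a lysosomal glycoprotein of macrophages, went from 53.5, 66.8 and 75.4 RPKM to 326, 277 and 309 RPKM, by 2.22 log2 units, and Mpeg1, the pore-forming perforin-2, from 5.63, 1.58 and 3.12 RPKM to 114, 87.2 and 115 RPKM, by 4.87. Itgax (CD11c) rose by 3.25 and Mertk, a receptor for dying cells, by 2.72, both to a low level. Ly6c2, the marker of inflammatory monocytes, was abundant and fell by 0.49, though its difference was 0.03 with quantile normalization. Fcgr1, the high-affinity Fc receptor, ran from 27.6, 2.63 and 6.17 RPKM in the vehicle libraries to 6.68, 3.88 and 6.73 RPKM in the treated ones; its controls spanned the treated values and it did not pass, except without DMSO replicate 2 (−1.17). With that library left out the list had 2 falls. Tissue macrophage receptors stayed low: Marco was at most 0.0176 RPKM, Axl at most 0.0141 RPKM, and Cd163 at most 0.474 RPKM, this last in DMSO replicate 1. DMSO replicate 1 was also the highest control for Lyz2, which read 1706, 416 and 528 RPKM in vehicle and 3685, 3017 and 3989 RPKM in treated libraries.

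Lysosome genes rose broadly and by moderate amounts. Lysosomes are acidified by the vacuolar proton pump, and TFEB and related factors bind the CLEAR motif in promoters of both gene groups. Of 40 lysosomal hydrolases and membrane proteins 29 rose, 5 fell and 6 did not pass, with a median of 0.67 log2 units. Cathepsins and the asparaginyl protease legumain rose most: Ctss by 6.09, Lgmn by 3.82, Ctsk by 3.21, and Ctsb by 2.1. Psap, the precursor of the saposins that help to digest sphingolipids, went from 38.3, 33.7 and 40.4 RPKM to 289, 329 and 310.3 RPKM, by 3.03 ± 0.08 (SE) (limma, adjusted p = 2.40e-13). Its mean rose 8.26-fold, and the 3 treated libraries lay well above every control. Gm2a, the activator of ganglioside breakdown, fell by 0.78, the deepest fall of the list, and the sulfatase Arsa by 0.44. The falls numbered 3 rather than 5 when MLL-AF9 libraries were fitted alone, without DMSO replicate 3 or without MI-2-2 replicate 2. Tfeb itself rose by 0.94, from 2.65, 2.88 and 2.83 RPKM to 5.59, 6.5 and 5.42 RPKM.

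The proton pump followed, with 13 of 17 tested subunits up and 1 down. Atp6v1a, the catalytic subunit, stood at 89.2, 61.2 and 74.6 RPKM in vehicle and 125, 121 and 125 RPKM in treated libraries and rose by 0.73. Its promoter is shown for the CLEAR motif TCACGTGA, in capitals, which starts 132 bases before the start.
Atp6v1a, chr16:44139210-44139509, minus strand, RefSeq GRCm38.p6: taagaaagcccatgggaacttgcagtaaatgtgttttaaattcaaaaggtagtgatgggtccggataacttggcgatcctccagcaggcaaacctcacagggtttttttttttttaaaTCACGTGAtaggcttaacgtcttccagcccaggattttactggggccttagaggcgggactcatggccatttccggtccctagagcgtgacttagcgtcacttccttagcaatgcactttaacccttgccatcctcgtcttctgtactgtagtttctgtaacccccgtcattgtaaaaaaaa
The motif was in 3 of 11 proton pump genes with a sequence (27.3%: Atp6v0d1, Atp6v0e and Atp6v1a), in 3 of 33 lysosomal genes (9.09%: Ctsd, Gla and Mcoln1) in 1 of 8 primary granule genes (12.5%: Calr), in 10 of 532 genes that rose at least 2-fold (1.88%) and in 175 of 7958 genes (2.2%). Of the 6 proton pump and lysosomal genes 5 rose, while Atp6v0e, at 309, 300.5 and 297 RPKM and 304, 294 and 301 RPKM, did not pass. The E-box CACGTG, which lies within the CLEAR motif, was in 8 of 33 lysosomal genes (24.2%) and in 873 of all genes (11%). Atp6v0d2, the d2 isoform found in osteoclasts and macrophages, rose by 6.02, Atp6v0a1 by 1.35, Atp6v1b2 by 0.96 and Tcirg1, the a3 isoform of osteoclasts, by 0.83. DMSO replicate 1 was the highest control in 15 of 17 subunits and DMSO replicate 2 the lowest in 14, against 42.5% and 47.1% of all genes. Autophagy genes showed no such shift, with 10 of 24 up and 9 down, beside 29.0% and 28.4% of all genes. Among them Gabarapl1, an LC3-family protein, fell by 0.77 and Optn, an autophagy receptor, rose by 0.82.

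Receptors that sense chemoattractants and microbes rose in nearly every case. All 11 tested chemoattractant receptors rose, with a median of 2.39 log2 units. Fpr1, which detects formylated bacterial peptides, was listed at 0 in all vehicle libraries and at 14.9, 7.8 and 12.4 RPKM in treated ones. Ccr1, a receptor for Ccl3 and Ccl9, rose from 2.73, 3.28 and 3.72 RPKM to 81.7, 67.4 and 82.5 RPKM, by 4.38, with 2.18 and 1.89 in MLL-AF6 and MLL-AF1p cells. C3ar1 and C5ar1, the receptors for complement fragments, rose by 3.82 and 2.11, and Ltb4r1, the leukotriene B4 receptor, by 2.03. Of 21 pattern recognition receptors 18 rose, 1 fell and 2 did not pass. The falls numbered 2 without DMSO replicate 2, with quantile normalization or with the replicate block, and 0 in MLL-AF9 libraries alone. Tlr13, which detects bacterial ribosomal RNA, rose from 0.325, 0.589 and 0.531 RPKM to 25.5, 26.4 and 27.1 RPKM, by 4.78 ± 0.13 (SE) (limma, adjusted p = 1.79e-13). The controls were all low and the treated values lay close together. Clec7a (Dectin-1), a receptor for fungal glucan, rose by 3.77, Tlr7 by 3.47, Tlr2 by 2.63 and Nlrp3, the inflammasome sensor, by 2.91. Tlr4, the endotoxin receptor, fell by 0.55, but did not pass in MLL-AF9 libraries alone, while its coreceptor Ly96 rose by 1.68.

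The products downstream of such receptors rose with them. Of 16 tested inflammatory cytokines and members of the NF-kB system 13 rose and 0 fell. Tnf stood at 6.27, 4.24 and 4.41 RPKM in vehicle and 77.5, 43.3 and 68.05 RPKM in treated libraries and rose by 3.51 log2 units, and Il1a rose by 2.68. Every treated library exceeded every control for both genes, and MI-2-2 replicate 2 was the lowest of the treated ones. Il1rn, the natural antagonist of interleukin-1, rose by 3.11, and the feedback inhibitors Tnfaip3 (A20) and Nfkbia by 2.01 and 1.36. Among the transcription factors Relb rose by 2.47, Rel by 2.06, Nfkb2 by 1.35 and Nfkb1 by 0.35. Il1b, at 6.01, 0.887 and 2.14 RPKM against 10.4, 2.5 and 9.73 RPKM, overlapped between the groups and did not pass, except without DMSO replicate 1 (1.86) or MI-2-2 replicate 2 (1.88) and with the replicate block (1.27), and Il6 was listed at 0.0432 RPKM or less. Of 9 tested chemokines 8 rose, the largest being the monocyte attractants that macrophages secrete; Ccl4 rose by 4.9, Cxcl2, a neutrophil attractant, by 3.75 and Cxcl10, an interferon-induced chemokine, by 2.54. Pf4, a platelet chemokine, fell by 1.42. MI-2-2 replicate 2 was the lowest treated library in 14 of the 16 cytokine and NF-kB genes and in 7 of 9 chemokines, against 38.1% of all genes. Without it the rises numbered 14 of 16.

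Interferon-stimulated genes rose in MLL-AF9 cells and mostly fell in MLL-AF6 cells. These genes are switched on by interferon through a complex that holds Stat2 and Irf9. All 18 tested genes of the list rose in MLL-AF9 cells, and all treated libraries lay above all controls in each of them. The median was 1.42 log2 units, against −0.52 in MLL-AF6 and 0.42 in MLL-AF1p cells. The MLL-AF9 response was higher than that of MLL-AF6 cells in 17 of 18 genes and lower in 0, where all genes gave 24.3% and 8.44%. It was higher than that of MLL-AF1p cells in 12 and lower in 1, where all genes gave 21.2% and 13.5%. In MLL-AF6 cells 10 of the 18 fell and 2 rose, where 39.2% of all genes fell and 17.4% rose, and in MLL-AF1p cells 9 rose and 1 fell, where 18.8% of all genes rose and 25.5% fell. The promoters of 3 members are shown for the interferon response motif GAAANNGAA, in capitals where it matches on either strand, overlapping matches joined; this motif was added after the values had been seen. They are RefSeq sequences on GRCm38.p6, cut as above.
Ifit1, chr19:34640639-34640938, plus strand: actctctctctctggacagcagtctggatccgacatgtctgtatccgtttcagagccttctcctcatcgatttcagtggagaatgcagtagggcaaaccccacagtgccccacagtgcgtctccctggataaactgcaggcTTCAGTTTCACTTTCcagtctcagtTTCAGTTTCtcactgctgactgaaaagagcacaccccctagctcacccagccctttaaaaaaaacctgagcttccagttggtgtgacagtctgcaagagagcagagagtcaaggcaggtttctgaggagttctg
Isg15, chr4:156200769-156201068, minus strand: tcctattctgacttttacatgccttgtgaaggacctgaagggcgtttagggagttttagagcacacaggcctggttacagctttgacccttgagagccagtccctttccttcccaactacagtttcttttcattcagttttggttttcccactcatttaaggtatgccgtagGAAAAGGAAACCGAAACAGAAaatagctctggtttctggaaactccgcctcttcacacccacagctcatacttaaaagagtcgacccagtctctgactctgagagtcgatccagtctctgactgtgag
Rsad2, chr12:26456403-26456702, minus strand: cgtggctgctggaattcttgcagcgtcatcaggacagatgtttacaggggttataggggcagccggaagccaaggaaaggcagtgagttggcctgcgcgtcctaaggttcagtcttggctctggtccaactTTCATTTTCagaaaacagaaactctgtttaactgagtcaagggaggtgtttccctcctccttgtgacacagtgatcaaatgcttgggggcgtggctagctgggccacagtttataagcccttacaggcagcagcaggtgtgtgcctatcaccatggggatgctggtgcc
Ifit1 and Isg15 each held 3 matches, those of Isg15 in 1 overlapping run that starts 78 bases before the transcription start, and Rsad2 held 1. Of the 14 list members with a sequence 9 held the motif (64.3%: Isg15, Ifit1, Ifit3, Oas1a, Rsad2, Stat2, Ifih1, Ddx58 and Bst2), against 574 of 7958 tested genes (7.21%), 71 of 532 genes that rose at least 2-fold (13.3%) and 10 of 55 ribosomal protein genes (18.2%).

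Ifit1, which binds foreign RNA lacking a proper cap, stood at 0.239, 0.19 and 0.365 RPKM in the vehicle libraries and at 7.73, 3.82 and 5.87 RPKM with MI-2-2. It rose by 3.00 ± 0.2 (SE) log2 units (limma, adjusted p = 4.37e-09), with −0.39 in MLL-AF6 and 1.37 in MLL-AF1p cells. Irf7, the factor that amplifies interferon output, went from 2.1, 1.99 and 2.65 RPKM to 11.6, 6.3 and 8.69 RPKM and rose by 1.74. In MLL-AF6 cells its mean went down from 4.35 to 1.45 RPKM (−1.32 log2 units), and in MLL-AF1p cells it was 2.75 and 3.81 RPKM, so the treated MLL-AF9 mean of 8.88 RPKM was above every other mean of this gene. Usp18, which switches the interferon receptor off, rose by 2.39, Isg15, a ubiquitin-like modifier, by 1.55, and Rsad2 (viperin) by 1.52. The signal carriers Irf9 and Stat2 rose less, by 1.32 and 0.67. Ifi27l2a had the largest rise, from 3.08, 5.65 and 5.82 RPKM to 68.6, 53.6 and 59.5 RPKM, and was the member whose response was larger in MLL-AF1p cells, 4.8 against 3.55. The 4 listed genes under the testing level, Mx1, Mx2, Oasl1 and Ifi44, had at most 0.306 RPKM in any library.

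The treated libraries differed in these genes. Summed over the list, the vehicle libraries held 139.4, 159.2 and 163.5 RPKM and the treated libraries 434.2, 290.0 and 361.1 RPKM. MI-2-2 replicate 2 was the lowest treated library in 18 of 18 genes, where it was the lowest in 38.1% of all genes; without it all 18 still rose, with a median of 1.64 log2 units, and the median without each other library lay between 1.23 and 1.43. Leaving out a library left 17 or 18 rises, and the count above MLL-AF6 stayed at 17 in each scaling tried.

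Antigen presentation showed no common direction. Cd74, the invariant chain that escorts MHC class II molecules, rose from 0.254, 0.24 and 0.246 RPKM to 34.1, 21.8 and 26.1 RPKM, by 5.2, while the class II chains it escorts fell. H2-Ab1 went from 9.73, 3.34 and 9.04 RPKM to 1.57, 0.352 and 1.02 RPKM, by 2.37 log2 units, H2-Aa fell by 1.25 and Ciita, the class II master regulator, was at 0.00893 RPKM or less in all libraries. Both costimulatory ligands rose: Cd80 from 1.11, 1.12 and 2.22 RPKM to 12.01, 10.5 and 10.2 RPKM and Cd86 from 0, 0 and 0.0135 RPKM to 3.66, 3.11 and 3.23 RPKM. Cd80 rose by 2.56 in MLL-AF9 cells, with 0.41 and −0.39 in MLL-AF6 and MLL-AF1p cells.

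The equipment of phagocytes rose in most of its parts. Of 6 tested subunits of the NADPH oxidase, which makes superoxide, 5 rose; Cybb, the catalytic subunit gp91phox, went from 5.21, 1.24 and 1.66 RPKM to 277, 163 and 256 RPKM, by 6.35 ± 0.34 (SE) (limma, adjusted p = 4.21e-10). DMSO replicate 1 was the highest control and every treated library was far above it. Its partner Cyba rose by 0.68, and Rac2, at 299.7, 385 and 354 RPKM and 316, 341 and 329 RPKM, passed only without DMSO replicate 1 (−0.17). Of 6 tested metalloproteinases and inhibitors 5 rose, among them Mmp12, macrophage elastase, by 6.00, Adam8, a sheddase of myeloid cells, by 4.28 and Timp2, an inhibitor, by 0.78. Of 17 adhesion molecules 12 rose and 1 fell (2 without DMSO replicate 2 or MI-2-2 replicate 2, or with the replicate block). Itgb2, the beta chain shared by the leukocyte integrins, rose by 1.37. Cd44, the hyaluronan receptor, rose by 1.56 and Cd9, a tetraspanin, by 1.82, while Itgb5 fell by 0.93. Of 15 growth factor and cytokine receptors 11 rose and 3 fell. The receptor for GM-CSF rose in its alpha chain Csf2ra, by 0.96, and in the common beta chain Csf2rb, by 0.49. The interleukin-3 receptor was divided: its mouse beta chain Csf2rb2 rose by 1.00 and its alpha chain Il3ra fell by 1.04. Il4ra fell by 0.69 and Ifngr1 by 0.7. Anxa1, the annexin that dampens neutrophil entry, rose from 3.61, 5.43 and 5.4 RPKM to 123, 197 and 151 RPKM, by 4.88, within a list of S100 proteins and annexins of which 13 of 16 rose and 0 fell.

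Lipid, iron and eicosanoid genes also shifted. Of 14 lipid handling genes 11 rose and 1 fell. The falls numbered 2 without DMSO replicate 2, with median centring or with the replicate block. Lpl, lipoprotein lipase, went from 1.71, 0.819 and 1.42 RPKM to 279.6, 184 and 246 RPKM, Trem2, a lipid-sensing receptor, from 0.341, 0.365 and 0.521 RPKM to 23.5, 26.2 and 24.9 RPKM, and Fabp4, a fatty acid carrier, from 0.0698, 0 and 0 RPKM to 12.8, 11.3 and 11.4 RPKM. All 3 were low in every control and rose by 7.04, 4.81 and 4.56 log2 units. Abca1, the cholesterol exporter, rose by 1.94, and Apoe fell by 0.34, though it did not pass without MI-2-2 replicate 1. Of 20 cholesterol synthesis genes 11 rose and 0 fell, by small amounts (median 0.31). The rises numbered 7 without DMSO replicate 2, which was the lowest control in 17 of the 20, against 47.1% of all genes. Of 11 iron handling genes 7 rose and 0 fell. Fth1, the ferritin heavy chain, rose by 2.42, Slc11a1, the metal pump of the phagosome, by 4.48, Slc40a1, the iron exporter ferroportin, by 2.45 and Hmox1, which frees iron from heme, by 1.82, while Tfrc, the transferrin receptor, stood at 42.2, 29.4 and 35.9 RPKM and 36.5, 46.6 and 35.8 RPKM.

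Of 14 prostaglandin and leukotriene genes 7 rose, 3 fell and 4 did not pass. Hpgd, which inactivates prostaglandins, was among the most abundant transcripts of vehicle cells, at 1773, 1431 and 1926 RPKM, and fell to 117, 93.6 and 114 RPKM. That was the deepest fall of the named genes, by 3.97 ± 0.15 (SE) log2 units (limma, adjusted p = 5.76e-12), with −4.29 and −3.3 in the other constructs. The 7 rises included Alox5, which starts leukotriene synthesis, by 1.28, and its helper Alox5ap by 0.82. Ptgs1 (cyclooxygenase-1) rose by 0.7, Ptges by 1.36 and Tbxas1, thromboxane synthase, by 1.00. Not every tested synthase rose, as Ltc4s, Ptges2, Ptges3 and Hpgds were also in the list. Tbxas1 differed from −0.25 in MLL-AF6 and −0.38 in MLL-AF1p cells (limma interaction, adjusted p = 6.88e-07 and 4.01e-07). Redox genes of the NRF2 program were divided, with 8 of 20 up and 6 down, beside 29.0% and 28.4% of all genes. The cystine importer Slc7a11 rose by 1.97 and Srxn1, sulfiredoxin, by 1.57, while Gstm1 fell by 0.69 and Gclm by 0.62. In 9 of these 20 genes the MLL-AF9 response was lower than in MLL-AF6 cells and in 1 it was higher, where all genes gave 8.44% and 24.3%. Against MLL-AF1p cells it was lower in 8 and higher in 5, where all genes gave 13.5% and 21.2%.

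The protein synthesis machinery fell. Of 75 tested cytosolic ribosomal proteins 73 fell and 0 rose, with a median of −0.99 log2 units, and the list took 10.8 ± 1.29% of reads in vehicle and 5.44 ± 0.0418% in treated libraries (SD, n = 3). Those that did not pass were Rpl30 and Rpl34, each at 3.57 RPKM or less in every library, a low level for ribosomal genes; reads shared with their many near-identical copies cannot be told apart. Rpl37 fell furthest, from 560.3, 708 and 578 RPKM to 240.5, 244 and 244 RPKM, by 1.33, and Rpl13a by 1.24. The treated libraries lay close together in that share. DMSO replicate 1 was the lowest control in 66 of 75 genes and DMSO replicate 2 the highest in 73, against 38.1% and 35.5% of all genes. Medians in MLL-AF6 and MLL-AF1p cells were −0.48 and −0.49. The MLL-AF9 fall was deeper in 60 of 75 genes against each, where 8.44% and 13.5% of all genes were lower. Quantile normalization, which forces 1 distribution on all libraries, reduced those counts to 14 and 26 and the median fall to −0.42, with 1 rise (Rpl10, 0.15). Ribosome biogenesis genes fell as well, 20 of 28, with 1 rise; Rcl1, which cuts the ribosomal RNA precursor, fell by 1.21 and the nucleolar protein Nop16 by 0.69. That list had a median of −0.46, beside −0.59 with MLL-AF6 and 0.01 with MLL-AF1p, and its 1 rise was 0 without DMSO replicate 3.

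Respiratory chain genes fell in MLL-AF9 cells by small amounts. Of 39, 24 fell and 3 rose, with a median of −0.24. In MLL-AF6 cells 2 fell and 14 rose, where 39.2% of all genes fell and 17.4% rose. In MLL-AF1p cells 4 fell and 6 rose, where 25.5% of all genes fell and 18.8% rose. The MLL-AF9 response was lower than that of MLL-AF6 cells in 25 genes and of MLL-AF1p cells in 13, and higher in 0 against either. All genes gave 8.44% and 13.5% lower. Median centring raised the MLL-AF1p count to 24. The 3 rises were 0 with median centring, in MLL-AF9 libraries alone and without DMSO replicate 2, DMSO replicate 3, MI-2-2 replicate 2 or MI-2-2 replicate 3, and 1 without MI-2-2 replicate 1 or with the replicate block. Uqcrc1, a core subunit of complex III, fell by 0.73 and Atp5d, a subunit of the ATP synthase, by 0.69, with 0.05 and −0.08 in the other constructs. Glycolytic genes mostly did not pass: 3 of 19 rose and 2 fell. Slc2a3, a glucose transporter, rose by 1.42, while the falls, of Pfkm and Pfkp, became 6 without DMSO replicate 1.

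Amino acid and tRNA synthetase genes under the stress factor ATF4 fell in MLL-AF9 cells, and their controls were uneven. Of 22 tested, 13 fell, 1 rose (2 without DMSO replicate 2) and 8 did not pass. Slc6a9, a glycine transporter, went from 10.3, 13.8 and 10.2 RPKM to 2.25, 1.1 and 2.08 RPKM, by 2.39; Psph, of serine synthesis, from 38, 62.7 and 51.7 RPKM to 18.3, 18.7 and 18.03 RPKM, by 1.41; and Asns, asparagine synthetase, from 59.98, 194 and 130.3 RPKM to 36.7, 52.4 and 33.99 RPKM, by 1.5. In each of them the lowest control was above the highest treated library. DMSO replicate 1 was the lowest control in 21 of 22 genes and DMSO replicate 2 the highest in 22, against 38.1% and 35.5% of all genes. The summed level ran from 970.2 to 2013 RPKM in vehicle and from 777.3 to 891.8 RPKM in treated libraries. Falls numbered 19 without DMSO replicate 1 and 11 without DMSO replicate 2. Trib3, a pseudokinase induced by ATF4, spanned 3.44, 45.6 and 14.01 RPKM in vehicle against 3.23, 4.26 and 3.63 RPKM and did not pass, except without DMSO replicate 1 (−2.63) or with the replicate block (−1.72). Cytosolic chaperones fell in 10 of 19 cases and rose in 1, led by the chaperonin subunit Cct5, by 0.74. Those rises numbered 4 without DMSO replicate 1, 2 with quantile normalization, and 0 without DMSO replicate 2, with median centring or in MLL-AF9 libraries alone. In the endoplasmic reticulum 5 of 17 rose, beside 29.0% of all genes. Hspa5 (BiP) rose by 0.53, while Xbp1, a factor of the unfolded protein response, fell by 0.98.

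**Figure D3:**
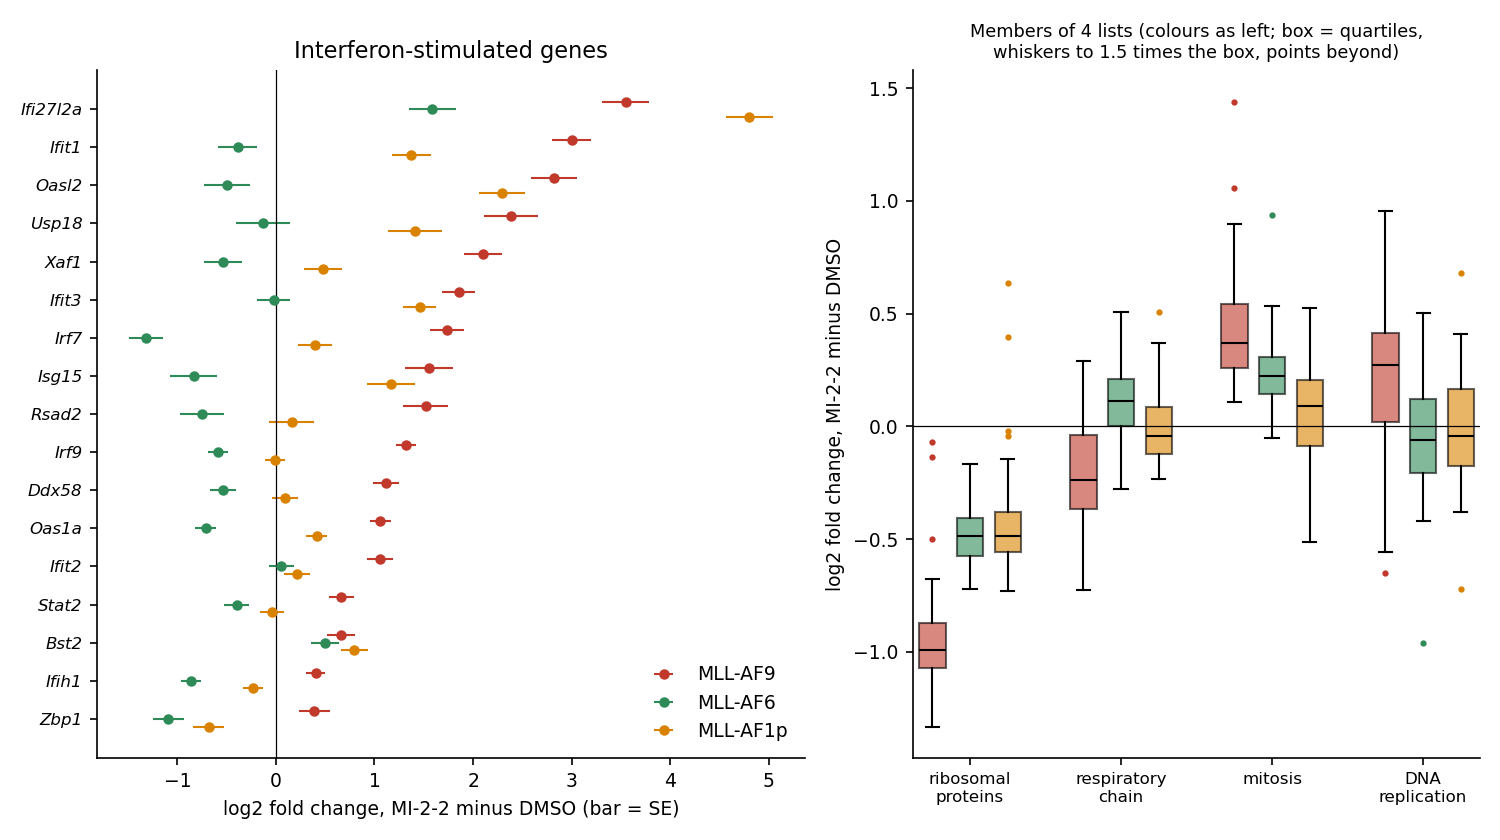
Left: log2 difference, MI-2-2 minus DMSO, of 17 of the 18 tested interferon-stimulated genes in each of the 3 constructs, with standard errors. Right: the same difference for all members of 4 lists as boxes (quartiles, whiskers to 1.5 times the box); the MLL-AF9 medians are −0.99 for ribosomal proteins, −0.24 for the respiratory chain, 0.37 for mitosis and 0.27 for DNA replication.

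Genes of cell division rose slightly. Of 28 mitosis and spindle genes 22 rose and 0 fell, with a median of 0.37. Kif23, a kinesin of cytokinesis, rose from 6.67, 7.95 and 7.36 RPKM to 17.9, 24.7 and 20.1 RPKM, by 1.44, Bub1, a spindle checkpoint kinase, by 1.06 and Ccna2, cyclin A, by 0.9. Mki67, the usual proliferation marker, went from 45.9, 35.1 and 41.5 RPKM to 52.9, 52.3 and 52.9 RPKM, by 0.37. MI-2-2 replicate 2 was the highest treated library in 26 of 28 genes, against 43.8% of all genes, and 20 of the 28 rose without it. Of 39 DNA replication genes 19 rose and 3 fell, led by Rrm2, of nucleotide supply, by 0.95, and the helicase subunit Mcm5 by 0.81. Those rises numbered 11 with median centring, 10 in MLL-AF9 libraries alone, 12 without DMSO replicate 1 and 11 without MI-2-2 replicate 2, and the falls 0 without DMSO replicate 2 or MI-2-2 replicate 1 and 1 without MI-2-2 replicate 3 or in MLL-AF9 libraries alone. Among 18 cyclins, kinases and inhibitors of the G1 phase 8 rose and 1, Cdk6, fell; falls numbered 4 without DMSO replicate 1 and 2 with median centring or quantile normalization. Ccne2, cyclin E2, rose by 0.99 and Rbl1, the pocket protein p107, by 0.71, and so did the inhibitor Cdkn2c (p18), by 1.64. Cdkn1a (p21) stood at 26.2, 37.5 and 35.1 RPKM and 29.1, 25.01 and 24.1 RPKM and did not pass, though it fell with median centring or without DMSO replicate 1.

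The Bcl2 family holds members that protect cells and members that kill them. Of 15 tested members of the Bcl2 family 6 rose and 4 fell, beside 29.0% and 28.4% of all genes. Mcl1, which myeloid cells need to survive, went from 125, 102 and 117 RPKM to 243, 208 and 246 RPKM, by 1.01 ± 0.1 (SE) (limma, adjusted p = 2.77e-07). All treated libraries were above all controls, and the MLL-AF6 and MLL-AF1p values were 0.61 and 0.2. Bcl2l1 (Bcl-xL) rose by 0.81 and the closely related copies Bcl2a1b and Bcl2a1d by 3.02 and 2.52. The killers Bmf and Bbc3 (Puma) fell by 1.19 and 0.92, and Bid by 0.49, whereas Bak1 rose by 0.37, though it did not pass in MLL-AF9 libraries alone. Of 16 p53 pathway genes 6 rose (37.5%) and 5 fell (31.25%). Btg2, an antiproliferative target, rose by 1.85 and Trp53 fell by 0.33. Polycomb and DNA methylation genes, 6 up and 6 down of 19 (31.6% each), moved at about the shares of all genes. Among them Dnmt3a, a methyltransferase, was up by 0.9, Bmi1 up by 0.53 and Pcgf2 down by 0.66. Bmi1 was the reverse of its fall in MLL-AF6 cells (−0.59).

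**Figure D4:**
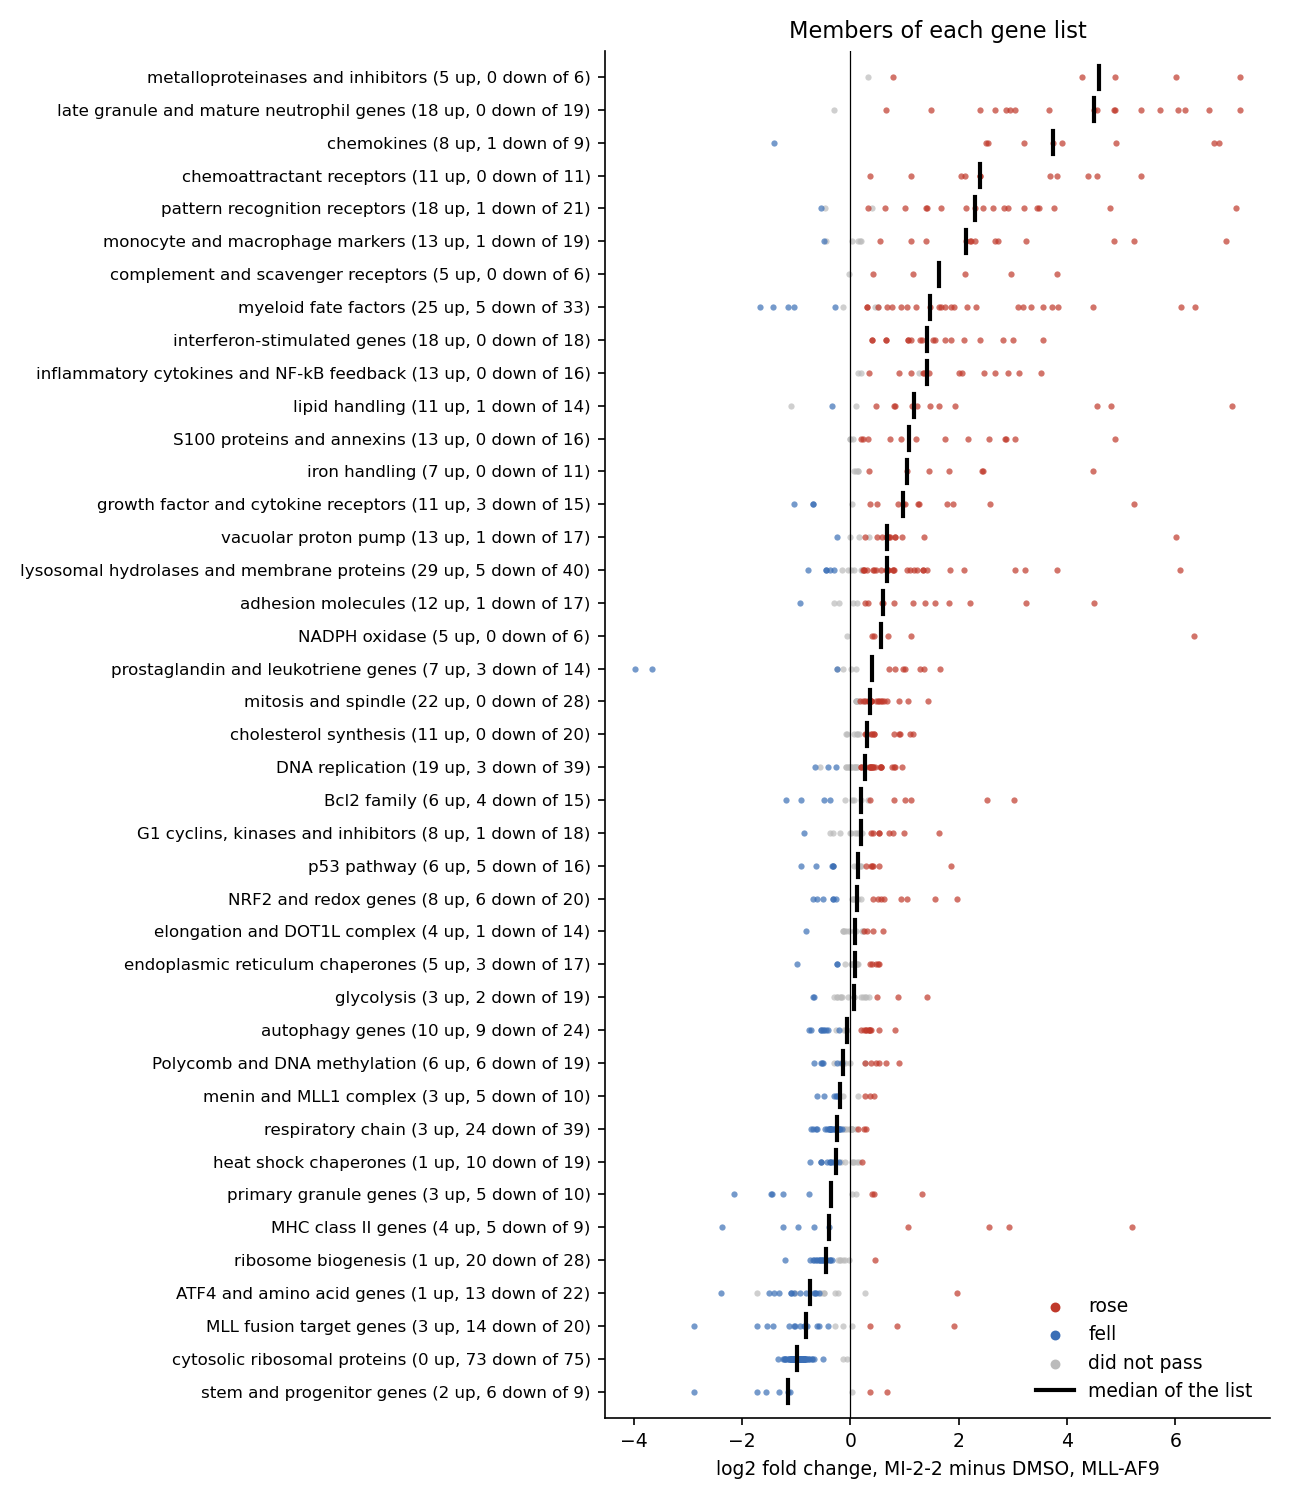
Each row is 1 of the 41 gene lists, each point a tested member at its log2 difference, MI-2-2 minus DMSO, in MLL-AF9 cells, and the black line the list's median. The metalloproteinase list and the late granule list have the highest medians (4.58 and 4.50), and the 75 tested ribosomal genes all lie below 0, the nearest at −0.07.

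The larger part of the strong changes recurred in the other constructs, each of which has its own vehicle and treated libraries. Of the 730 genes that rose at least 2-fold in MLL-AF9 cells, 610 also rose in MLL-AF6 cells (83.6%, which is 33.0% of the 1848 genes that rose there) and 25 fell. In MLL-AF1p cells 562 rose (77.0%, and 28.1% of the 2000 rises there) and 12 fell. Of the 428 genes that fell at least 2-fold, 337 fell in MLL-AF6 cells (78.7%, and 8.08% of 4170 falls) and 314 in MLL-AF1p cells (73.4%, and 11.6% of 2714 falls). Among all 10637 genes, 17.4% rose and 39.2% fell in MLL-AF6 cells, and 18.8% rose and 25.5% fell in MLL-AF1p cells.

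The size of the response was then compared between constructs by interaction contrasts, both of which use the MLL-AF9 libraries. Against MLL-AF6 cells 2581 genes were higher and 898 lower, which is 74.2% higher among the genes that differed, and against MLL-AF1p cells 2260 were higher and 1440 lower, 61.1% higher. These splits depended on the scaling. With median centring they were 42.9% and 42.7%, and with quantile normalization 52.0% and 47.6%. The median difference over all genes was 0.15 log2 units against MLL-AF6 and 0.06 against MLL-AF1p without centring, and the single differences named here exceed those medians. Within MLL-AF9 cells the split was 2577 up and 3709 down with median centring and 2730 and 3573 with quantile normalization.

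The genes whose response lay furthest above that in both other constructs, beyond Mmp9, Tlr13, Lpl, Cybb and Mef2c, included Ccl9. This chemokine, a Ccr1 ligand, stood at 21.1, 12.8 and 15.3 RPKM in vehicle and 182, 124 and 154 RPKM in treated MLL-AF9 libraries, a rise of 3.2. In MLL-AF6 cells its mean was 85.05 RPKM before and 94.3 RPKM after treatment, and in MLL-AF1p cells 142 and 94.1 RPKM. The low level was thus that of MLL-AF9 cells in vehicle, and the differences were 3.06 and 3.79 log2 units (limma interaction, adjusted p = 2.04e-07 and 5.62e-08). Mef2c was the reverse in kind: its mean fell from 9.37 to 2.22 RPKM in MLL-AF6 and from 8.28 to 2.85 RPKM in MLL-AF1p cells, and rose from 0.0791 to 1.69 RPKM in MLL-AF9 cells. Vehicle levels of this gene were thus far apart between constructs and treated levels less so. Lpl and Cybb, which rose in all constructs, rose more in MLL-AF9 cells, by 2.97 and 2.93 for Lpl and by 3.2 and 2.94 for Cybb. Tlr13 differed by 3.17 and 3.18 and Mmp9 by 4.21 and 4.78.

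On the other side stood genes that rose less or fell more. Spp1, the matrix protein osteopontin, was at 119, 14.8 and 35.9 RPKM in vehicle and 283, 112 and 202 RPKM in treated MLL-AF9 libraries, where DMSO replicate 1 overlapped the treated range, and rose by 2.2. In MLL-AF6 cells its mean rose from 13.1 to 1221 RPKM (6.75) and in MLL-AF1p cells from 9.84 to 429 RPKM (5.38). Anpep, aminopeptidase N (CD13), went from 11.6, 7.84 and 11.7 RPKM to 34.9, 34.6 and 35.8 RPKM in MLL-AF9 cells, by 1.73, and from 0.4 to 57.3 RPKM in MLL-AF6 cells, by 6.00. The mean of the MLL-AF9 vehicle libraries was 10.4 RPKM, against 0.4 and 0.177 RPKM in the other vehicle cells. Dkkl1, a secreted relative of Dickkopf proteins, fell from 7.54, 13.8 and 13.3 RPKM to 3.27, 2.56 and 2.76 RPKM, by 1.8, and had means of 0.0372 and 0.105 RPKM in MLL-AF6 and 0.108 and 0.256 RPKM in MLL-AF1p cells. Tmem37, a calcium channel gamma-like subunit, fell from 5.13, 7.82 and 6.01 RPKM to 1.21, 1.66 and 1.16 RPKM, by 1.88, with 1.15 and 0.03 elsewhere. Mab21l2, a developmental gene, and Igfbp7, a secreted binding protein, fell deeply in MLL-AF9 cells and were at 0.422 and 1.12 RPKM in MLL-AF6 vehicle cells. The Mab21l2 and Igfbp7 differences depended on the settings. By voom on reads, the Mab21l2 difference from MLL-AF6 was −0.18 (limma, adjusted p = 0.875). The Igfbp7 differences were −2.83 and −3.12, and its MLL-AF9 controls ran from 2.95 to 41.3 RPKM. The difference from MLL-AF6 lost its call with a pseudocount of 0.1 (−3.22), with no filter on low values, by voom (−3.34), and without DMSO replicate 1 (−1.89), DMSO replicate 3 (−2.9), MI-2-2 replicate 2 (−2.54) or MI-2-2 replicate 3 (−2.94). That from MLL-AF1p lost it without MI-2-2 replicate 2 (−2.83) and by voom (−3.84).

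**Figure D5:**
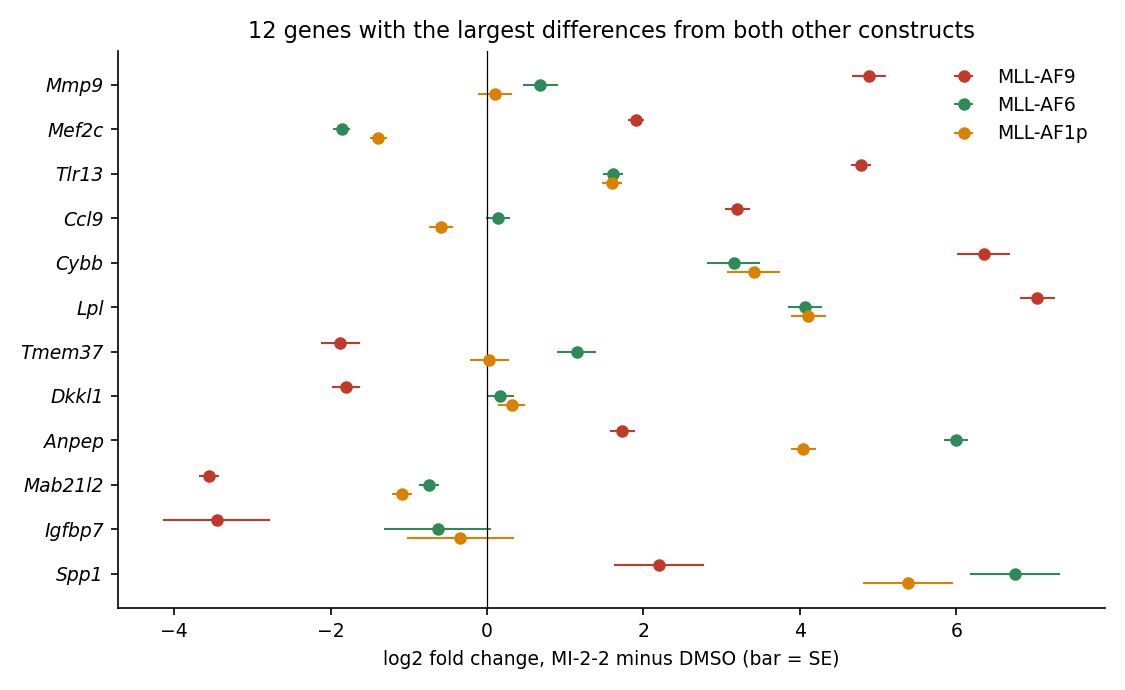
Log2 difference, MI-2-2 minus DMSO, in each of the 3 constructs for the 12 genes whose MLL-AF9 response lay furthest above (6) or below (6) that of both other constructs, with standard errors. The smaller of the 2 differences ranges from 2.93 for Lpl to 4.21 for Mmp9 among the former and from −1.91 for Tmem37 to −3.18 for Spp1 among the latter.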

How the data were processed

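Poly(A) RNA was sequenced from 18 libraries of 3 MLL fusion constructs, each with 3 MI-2-2 and 3 DMSO replicates. The authors deposited 1 table of RPKM values (reads scaled to gene length and library size), with gene lengths, for 23418 genes. RNA was taken with RNeasy columns at an integrity number of at least 8 and made into TruSeq v2 libraries, per the labels' protocols. The submitters' processing notes name the build mm9, Bowtie2 2.0.0.7 and also CASAVA 1.8.2, edgeR and HTSeq, with no order of steps. RPKM was multiplied by gene length and divided by a step fitted to the values of each library. This gave whole reads for 100% of values (tolerance 0.05 reads), which supplied the depths.

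Values were tested as log2(RPKM + 0.5) by limma 3.58.1 (R 4.3.3), with 1 fit of 6 group means over all 18 libraries (12 residual degrees of freedom), a trended prior and Benjamini-Hochberg adjustment over the 10637 genes with at least 1 RPKM in 3 or more MLL-AF9 libraries. Differences between constructs were interaction contrasts in that fit. Alternatives covered the pseudocount, the filter, scaling, the prior, the replicate block, MLL-AF9 libraries alone, each MLL-AF9 library left out, voom on recovered reads and reads thinned to 1 depth. Tables and figures were made with Python 3.11.15, pandas 2.3.3 and matplotlib 3.10.9.

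The members and gene lists were chosen with earlier results of these data known. Named genes were the 12 largest rises and falls with groups apart and a mean of at least 5 RPKM in the higher group, the 6 largest gains and losses in RPKM, up to 4 members of each list by size of change among those with a mean of at least 1 RPKM in either group, a short list by interest, and the 6 genes on each side that differed most from both other constructs. Other list members are named for their function, and were chosen after their values were seen. Promoter sequences are from RefSeq on GRCm38.p6, matched by symbol, for 7958 of the 10637 genes; the expression table carries no coordinates. A few genes are counted in the lists and are not reported here by name.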

Additional observations from a re-analysis of the deposited data

Results flagged for a closer look

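In 12 genes the MLL-AF9 response differed from that in MLL-AF6 and from that in MLL-AF1p cells, both by limma's interaction test with Benjamini-Hochberg adjustment, and these were the 6 on each side with the largest such difference. The value given is the smaller of the 2 differences in log2 units. The MLL-AF9 log2 fold change lay above both others by 4.21 for Mmp9, 3.29 for Mef2c and 3.17 for Tlr13. It did so by 3.06 for Ccl9, 2.94 for Cybb and 2.93 for Lpl. It lay below both others, with −3.18 for Spp1, −2.83 for Igfbp7 and −2.47 for Mab21l2. The same held for Anpep (−2.32), Dkkl1 (−1.97) and Tmem37 (−1.91). These values compare responses to the drug and not levels of the genes. Both differences of a gene use the same MLL-AF9 libraries, so they are not independent of each other.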

How the results depend on the processing

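The 3085 rises, the 3026 falls and the 2 counts of genes differing from another construct stayed within 1.5 times their value in every alternative run. Leaving out 1 MLL-AF9 library gave 2785 to 3295 rises and 2642 to 3103 falls, with 2841 to 4373 genes differing from MLL-AF6 and 3084 to 4194 from MLL-AF1p. MLL-AF9 libraries alone gave 2372 rises and 2345 falls, and voom on the recovered reads 3047 and 2930. With the replicate number as a block there were 3342 rises and 3314 falls. The main fit did not pair libraries by number, and the labels do not say whether the numbers pair them. Same-numbered deviations correlated at 0.298, 0.492 and 0.021. DMSO replicate 2 correlated best with its own number (−0.304 and −0.388 with MI-2-2 replicates 1 and 3). So did DMSO replicate 3 (−0.00972 and −0.00659 with MI-2-2 replicates 1 and 2). DMSO replicate 1 correlated best with MI-2-2 replicate 3 (0.365). Of 13729 values of single genes under an alternative, 13148 held their side of the threshold without a called value changing sign, 412 lost the call, 166 gained one and 3 changed sign, all 3 with quantile normalization: Ly6c2 (0.027), Rpl7a (0.023) and Rpl10 (0.15). Among genes named by the report, calls were lost in at least 1 setting for Cebpb, Sfpi1, Hoxa6, Kit, Laptm5, Tlr4, Apoe and Bak1 and gained for Trib3, Cdkn1a, Hoxa7, Fcgr1, Orm1, Il1b and Rac2. The construct differences of Igfbp7 and Mab21l2 also lost theirs. The cause was not tested. With 21180926 reads in the shallowest library, genes near 0 RPKM are the least precise.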
